A study of Mus musculus with 2 samples.

Results

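The genes described here are the metallothioneins Mt1 and Mt2 and 8 genes of the antioxidant response that is controlled by NRF2, the protein of Nfe2l2. They were taken by symbol from a table of 18888 genes, which held all 10. RNA was sequenced from mouse embryonic stem cells (mESCs) of the line 46C, which carries a green fluorescent reporter at the Sox1 locus. One group, PB, held the empty PiggyBac vector (a transposon that inserts into the genome). The other group, PB-TERRA, held the same vector with telomeric repeats, from which a polyadenylated form of TERRA, the noncoding RNA of telomeres, is made. Both groups were at passages 21 to 24 and were grown on gelatin in conventional mESC medium, and whether each was a clone or a pool was not given. The comparison asked which genes differ in level when polyadenylated TERRA is overexpressed. With 1 library per group, no difference below has a replicate check, and no p-value is given.

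Metallothioneins are small, cysteine-rich proteins that bind zinc and copper and buffer the free metal in the cell. Their genes are switched on by zinc through the transcription factor MTF1, which binds metal response elements (MREs), and also by oxidants and glucocorticoids. NRF2 is held in the cytoplasm by KEAP1 and degraded through the CUL3 ubiquitin ligase. Oxidants and electrophiles stop that degradation, and NRF2 then pairs with small MAF proteins at antioxidant response elements (AREs), where BACH1 can take its place as a repressor. Its targets make glutathione, keep thioredoxin and glutathione reduced, break down heme and detoxify quinones.

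Mt1 and Mt2 lie side by side on chromosome 8, and a search for the MRE core (TGCACNC or TGCGCNC, on both strands) found 3 matches around the start of Mt1 and 4 around that of Mt2. The windows ran from 250 bases before the annotated start to 50 bases after it, in RefSeq sequence of GRCm38.p6. Where transcription starts in these cells was not tested. The positions and counts of cores hold for the annotated start only. Of 32851 such windows of the genome, 25.7% held the core at least once and 1.97% at least 3 times. The bases before the start are shown because these neighbouring genes share a regulator, and capitals mark the cores. They are chr8:94178839-94179088 for Mt1 and chr8:94172368-94172617 for Mt2, both on the + strand.
Mt1: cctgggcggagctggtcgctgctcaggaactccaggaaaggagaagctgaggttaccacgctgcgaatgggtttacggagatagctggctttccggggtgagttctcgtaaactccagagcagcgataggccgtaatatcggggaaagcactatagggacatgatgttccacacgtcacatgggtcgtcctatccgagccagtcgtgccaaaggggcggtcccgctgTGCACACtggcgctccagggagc
Mt2: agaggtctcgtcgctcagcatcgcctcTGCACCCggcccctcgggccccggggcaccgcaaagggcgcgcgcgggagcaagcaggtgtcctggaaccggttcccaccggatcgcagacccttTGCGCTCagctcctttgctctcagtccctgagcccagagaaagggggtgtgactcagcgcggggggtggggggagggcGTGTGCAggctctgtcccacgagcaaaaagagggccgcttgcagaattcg
The remaining cores of these windows lay in the first 30 bases after the annotated start, at chr8:94179089-94179118 for Mt1 and chr8:94172618-94172647 for Mt2.
Mt1, after the start: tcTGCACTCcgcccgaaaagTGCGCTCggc
Mt2, after the start: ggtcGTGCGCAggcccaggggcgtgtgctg
The core nearest to the annotated start of Mt1 on its upstream side began 23 bases before it, and that of Mt2 began 50 bases before it.

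The ARE core (TGACNNNGC, on both strands) was present in the windows of 5 of the 7 genes that have one: Mt2, Nfe2l2, Gclm, Txnrd1 and Srxn1. The 7 genes have 9 windows, 3 of them of Txnrd1, where only the second held the core. Over all windows of the genome, 12.4% held it, which is a share per window and not per gene. Stretches of 30 bases with the core in capitals are shown for comparison between the genes, each read along its gene's own strand. They are chr8:94172529-94172558 (+) for Mt2, chr2:75704884-75704913 (-) for Nfe2l2, chr3:122245413-122245442 (+) for Gclm, chr10:82859104-82859133 (+) for the second of 3 windows of Txnrd1, and chr2:152105542-152105571 (+) for Srxn1.
Mt2: aaagggggtgTGACTCAGCgcggggggtgg
Nfe2l2: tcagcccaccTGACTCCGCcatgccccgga
Gclm: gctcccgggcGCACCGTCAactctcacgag
Txnrd1: ctggatttttGCTTTGTCAttctgacacgg
Srxn1: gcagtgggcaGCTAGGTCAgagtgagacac
In Gclm, Txnrd1 and Srxn1 the core was read on the opposite strand, so that its letters appear reversed and complemented. Neither core was found in the window of Nqo1. Gclm also held 3 MRE cores and Srxn1 held 1. A match describes letters only and does not show that a factor binds there.

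All 10 genes passed a filter of 1 FPKM (fragments per kilobase of gene length, scaled to the number of mapped reads) in at least 1 library, as did 12263 genes of the table. Each difference is given as the log2 ratio of FPKM + 0.1, PB-TERRA over PB, so that a positive value is a higher level in PB-TERRA. The files held no reads. From the steps between low FPKM values the depth was estimated at 24740000 reads for PB and 24880000 for PB-TERRA, and each gene's reads were estimated from its FPKM and length. The bracketed intervals are exact 95% Clopper-Pearson intervals of the log2 ratio of these estimated reads, and they cover counting error only.

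The 8 stem cell markers were between 27.02 FPKM (Tfcp2l1) and 1162.5 FPKM (Dppa5a) in PB, and their summed level was 2621.81 FPKM in PB and 2545.92 FPKM in PB-TERRA. The lower sum came from Dppa5a, since the other 7 summed to 1459.31 and 1506.0 FPKM. Of the 8, 5 were higher, and the median log2 ratio of all 8 was 0.05. The lower ones were Dppa5a (-0.16), Nanog (-0.10 [-0.15, -0.06]) and Zfp42 (-0.01 [-0.06, 0.03]). The 7 fibroblast markers measured had a summed level of 18.78 FPKM in PB and 22.85 FPKM in PB-TERRA, and 3 of them passed the filter. The collagen genes Col1a1, at 7.99 and 12.14 FPKM (log2 ratio 0.60), and Col1a2 (0.53, or 0.30 with a pseudocount of 1 FPKM) were higher in PB-TERRA, Thy1 was at 9.16 and 8.39 FPKM, and Lum and Postn were near 0. The 6 primitive endoderm markers summed to 9.12 FPKM in PB and 12.79 FPKM in PB-TERRA, and the 4 past the filter were higher, from 0.30 for Gata4 and 0.33 for Dab2 to 0.84 for Gata6 and 0.85 for Pdgfra (0.55 and 0.41 with a pseudocount of 1 FPKM). Of the 2 haematopoietic markers measured, Ptprc was near 0 at 0.02 and 0.01 FPKM and Cd68 was at 15.09 FPKM in PB and 19.11 FPKM in PB-TERRA, a log2 ratio of 0.34. In bulk RNA, fewer cells of a type and less RNA per cell cannot be told apart, and the part of these marker levels in the values below was not tested.

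Mt1 was lower in the PB-TERRA library than in the PB library, and its ratio was the lowest of the 10 genes. Its level was 544.15 FPKM in PB and 411.86 FPKM in PB-TERRA, which is 24.3% less. The log2 ratio was -0.40 [-0.46, -0.35], from an estimated 6300 and 4796 reads. Of the 12263 genes, 471 (3.84%) had a lower ratio. Among the 794 genes whose mean level was 100 FPKM or more, 10 had a lower ratio than Mt1, and among the 493 genes under 700 bases, 79 did.

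Mt2, the neighbour of Mt1 and the more abundant of the pair, differed far less. It was at 834.64 FPKM in PB and 801.22 FPKM in PB-TERRA, a log2 ratio of -0.06 [-0.10, -0.02], and it was slightly higher, at 0.02, once genes of like GC content and length were used as the reference. Mt1 was 0.652 of the level of Mt2 in PB and 0.514 in PB-TERRA, and the log2 ratio of Mt1 lay below that of Mt2 by -0.34 [-0.41, -0.27]. The summed level of both was 1378.79 FPKM in PB and 1213.08 FPKM in PB-TERRA, or 12% less. In the GENCODE M21 annotation, 45.85% of the 50-base stretches of Mt2 also occur in Gm45774, an antisense gene. Use of strand in the counting is not given in the sources used here, so reads of these genes cannot be told apart. Mt1 shared no such stretch with Mt2 or with any other gene.

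The other metallothioneins were rare in these cells. Mt3, best known from the brain, was at 6.86 FPKM in PB and 3.70 FPKM in PB-TERRA, a log2 ratio of -0.87 [-1.49, -0.31] from an estimated 72 and 39 reads. Mt4, a gene of stratified epithelia, was at 2.03 and 1.74 FPKM from an estimated 14 and 12 reads, with an interval of [-1.47, 0.99]. Mt4, Mt3, Mt2 and Mt1 follow each other in that order on chromosome 8, with 1 predicted gene between Mt3 and Mt2. Along this row the log2 ratios were -0.21, -0.87, -0.06 and -0.40. The interval of Mt4 contains the values of the other 3 genes, while the intervals of Mt2 and Mt1 do not overlap.

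**Figure D1:**
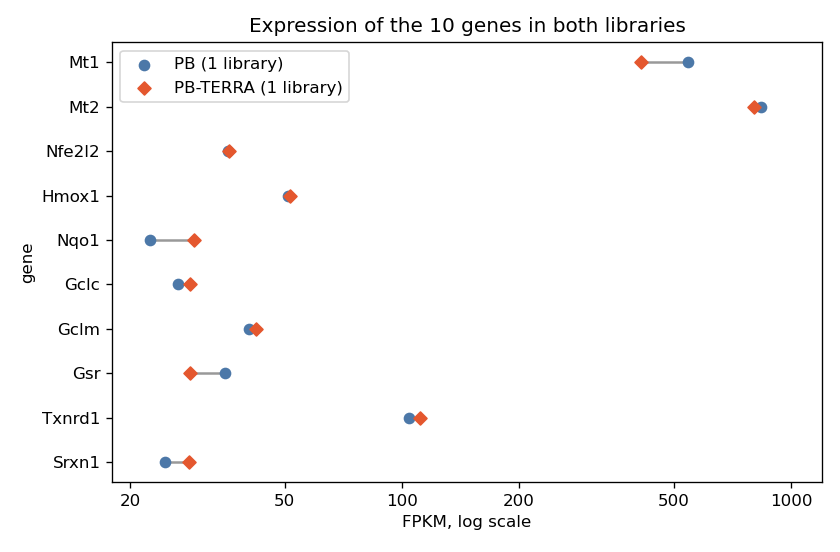
Level of each of the 10 genes in FPKM on a log axis, with 1 point for the PB library and 1 for the PB-TERRA library. Mt2 and Mt1 stand above the others, at 834.64 and 544.15 FPKM in PB, and the points of a gene lie farthest apart for Mt1, Nqo1 and Gsr.

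Mtf1, the zinc-sensing activator of the metallothioneins, was at 4.28 FPKM in PB and 4.38 FPKM in PB-TERRA, with an interval of [-0.11, 0.18] that includes 0. Slc30a1, the zinc exporter of the cell surface and another MTF1 target, was higher in PB-TERRA at 5.4 and 6.55 FPKM, a log2 ratio of 0.27 [0.13, 0.43]. Mt1 and Slc30a1, which answer to the same factor, lay on opposite sides of 0, and the activity of that factor was not tested. Of the 26 zinc and metal handling genes past the filter (Mt1 and Mt2 not included), 10 were higher and 16 lower, and 1, Mt3, was past 0.5 in either direction. The highest ratio was that of the zinc importer Slc39a3, at 0.35 with an interval of [-0.01, 0.77] that includes 0, or 0.21 with a pseudocount of 1 FPKM. The most abundant genes were Atox1, a copper chaperone, at 103.12 and 102.37 FPKM, and Slc39a7, a zinc transporter, at 55.67 and 52.01 FPKM. The median log2 ratio of the set was -0.03, against -0.0044 over all genes. When FPKM was rescaled to the same total in each library, it was 0.0023, against 0.0346 over all genes.

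Nfe2l2, which encodes NRF2, was at the same level in both libraries within counting error. It was at 35.83 FPKM in PB and 36.02 FPKM in PB-TERRA, a log2 ratio of 0.01 [-0.08, 0.10]. NRF2 is controlled mainly through the stability of its protein, which RNA levels do not show. Keap1, the sensor that binds NRF2, was at 11.33 and 11.77 FPKM, with an interval of [-0.08, 0.19]. Cul3, the scaffold of the ligase, was at 34.30 FPKM in PB and 37.33 FPKM in PB-TERRA, a log2 ratio of 0.12 [0.06, 0.18], which was 0.02 against genes of like GC content and length.

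The small MAF genes, whose proteins pair with NRF2, differed among themselves. Mafg was higher in PB-TERRA, at 9.37 and 11.72 FPKM, with a log2 ratio of 0.32 [0.12, 0.52]. Maff was lower, at 7.48 and 6.09 FPKM, with a log2 ratio of -0.29 [-0.53, -0.06], and Mafk was at 4.94 and 4.84 FPKM with an interval of [-0.26, 0.19]. Bach1, the repressor at AREs, was at 9.14 and 8.50 FPKM, with an interval of [-0.22, 0.01]. Of the 19 genes of NRF2 control past the filter, 11 were higher and 8 lower, and none reached 0.5 in either direction. Their median log2 ratio was 0.08, or 0.12 after rescaling to equal totals, where the median over all genes was 0.0346.

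**Figure D2:**
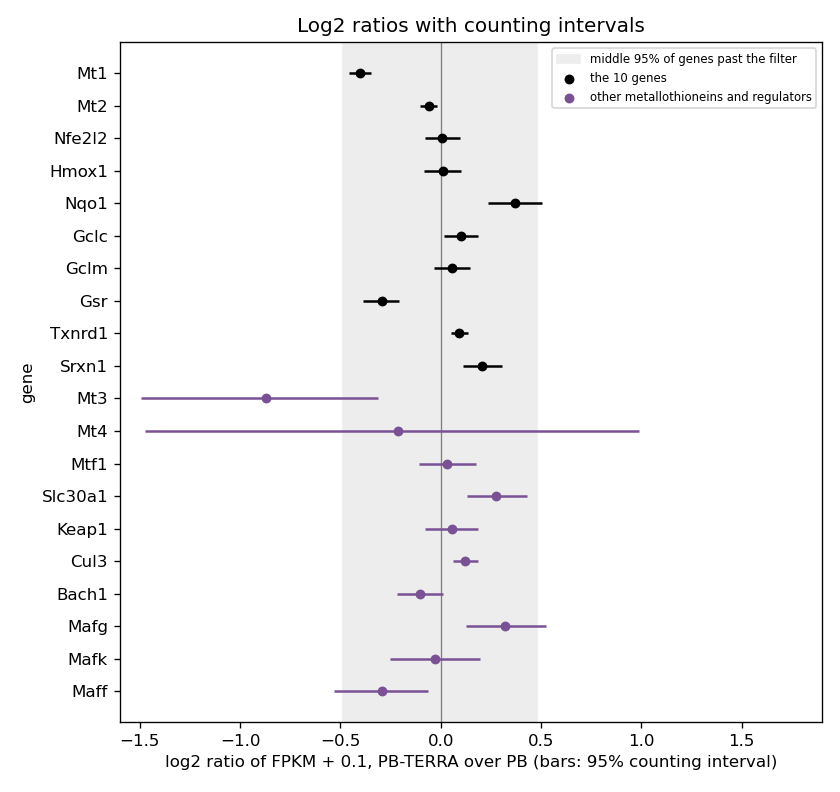
Log2 ratio of FPKM + 0.1, PB-TERRA over PB, for the 10 genes (black) and for other metallothioneins and regulators (violet), with bars for the 95% counting interval and a grey band for the middle 95% of all genes past the filter. The 10 black points lie inside the band, from -0.40 for Mt1 to 0.37 for Nqo1, and Mt3 lies to the left of it at -0.87.

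Hmox1, heme oxygenase, which opens the heme ring and is a target of both NRF2 and BACH1, was at 51.11 FPKM in PB and 51.44 FPKM in PB-TERRA. The log2 ratio was 0.01 [-0.08, 0.10], from an estimated 1921 and 1944 reads. Hmox2, the constitutive form, was at 36.55 and 35.17 FPKM, with an interval of [-0.18, 0.07]. The biliverdin reductases act on the product of heme oxygenase. Blvrb was at 25.54 FPKM in PB and 20.79 FPKM in PB-TERRA, a log2 ratio of -0.30 [-0.49, -0.10], and Blvra was at 5.94 and 6.97 FPKM with an interval of [-0.07, 0.54].

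Nqo1, the quinone reductase often read as a marker of NRF2 activity, was the highest of the 10 genes by ratio. It was at 22.59 FPKM in PB and 29.18 FPKM in PB-TERRA, which is 29.2% more. The log2 ratio was 0.37 [0.23, 0.50], from an estimated 803 and 1043 reads, the fewest among the 10. Of the 12263 genes, 505 (4.12%) had a higher ratio.

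Gclc and Gclm encode the catalytic and the modifier subunit of glutamate-cysteine ligase, the rate-limiting enzyme of glutathione synthesis. Gclc was at 26.51 FPKM in PB and 28.48 FPKM in PB-TERRA, a log2 ratio of 0.10 [0.02, 0.19]. Gclm was at 40.52 and 42.14 FPKM, a log2 ratio of 0.06 [-0.03, 0.15], and -0.04 against genes of like GC content and length. The ratio of the subunits was similar in both libraries, with Gclc at 0.654 of the level of Gclm in PB and 0.676 in PB-TERRA, and the log2 difference was 0.05 [-0.08, 0.17]. Against genes of like GC content and length it was 0.15 [0.02, 0.27], which no longer includes 0. Of the 50-base stretches of the Gclm transcripts, 4.58% also occur in other genes, Ppia among them.

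Gsr, glutathione reductase, was the only one of the 8 NRF2 genes described here with a lower level in PB-TERRA. It was at 35.09 FPKM in PB and 28.58 FPKM in PB-TERRA, which is 18.6% less, with a log2 ratio of -0.30 [-0.39, -0.21]. Of all genes past the filter, 891 (7.27%) had a lower ratio. Gsr thus lay on the other side of 0 from Gclc, an enzyme of glutathione synthesis.

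Txnrd1, the cytosolic thioredoxin reductase, was the most abundant of the 8 NRF2 genes described here. It was at 104.22 FPKM in PB and 111.14 FPKM in PB-TERRA, a log2 ratio of 0.09 [0.05, 0.14]. Srxn1, sulfiredoxin, which restores overoxidized peroxiredoxins, was at 24.60 and 28.40 FPKM, a log2 ratio of 0.21 [0.11, 0.30], and 1352 genes (11%) had a higher one. A substrate of each enzyme was more abundant than the enzyme itself. Txn1, thioredoxin, was at 244.79 FPKM in PB and 235.09 FPKM in PB-TERRA, and Prdx1, the most abundant peroxiredoxin, was at 640.22 and 629.05 FPKM. The other peroxiredoxin genes had log2 ratios from -0.21 to 0.06.

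Over the 10 genes, 7 were higher in PB-TERRA and 3 lower, and the median log2 ratio was 0.03, where -0.0044 was the median over all genes past the filter and 48.6% of genes were higher. None of the 10 reached an absolute log2 ratio of 1, which 0.913% of genes did. None was at 0.5 or above (2.3% of genes) or at -0.5 or below (2.37% of genes). The counting interval lay above 0 for Nqo1, Srxn1, Gclc and Txnrd1 and below 0 for Mt1, Gsr and Mt2. The interval of Mt2 included 0 after rescaling to equal totals and against genes of like length, with or without GC content, and that of Gclm lay above 0 after rescaling. Over all genes it lay above 0 for 18.2% and below 0 for 17.6%, and for the 5793 genes that have 800 or more estimated reads in each library, as these 10 do, the shares were 25.8% and 21.2%. An interval away from 0 was thus common among genes of this depth, and it does not include the variation between cultures. The summed level of the 8 NRF2 genes was 340.47 FPKM in PB and 355.38 FPKM in PB-TERRA.

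Of 32 other NRF2 targets past the filter, 10 were higher and 22 lower. Their median log2 ratio was -0.09, or -0.06 after rescaling to equal totals, where the median over all genes was 0.0346. Fth1, the heavy chain of the iron store ferritin, was among the higher ones at 549.68 FPKM in PB and 621.68 FPKM in PB-TERRA, a log2 ratio of 0.18 [0.14, 0.21]. Ephx1, an epoxide hydrolase, had the highest ratio of that set, 0.35 [0.15, 0.57]. The lowest was that of Gstm3, a glutathione transferase at 1.89 and 1.33 FPKM. It was -0.48 with an interval of [-1.17, 0.13] that includes 0, or -0.31 with a pseudocount of 1 FPKM.

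Of 30 glutathione genes past the filter, 8 were higher and 21 lower, with a median of -0.13. Gpx4, which reduces lipid peroxides with glutathione, was lower, at 358.75 FPKM in PB and 291.30 FPKM in PB-TERRA, a log2 ratio of -0.30 [-0.35, -0.25], which was -0.18 against genes of like GC content and length. The 4 genes of that set at -0.5 or below were the transferases Gstm5 (-0.88), Gstt1 (-0.71) and Gstk1 (-0.54) and the glutathione-degrading enzyme Chac1 (-0.69). Gstk1 fell short of -0.5 with a pseudocount of 1 FPKM (-0.46) and against genes of like length, with or without GC content (-0.48). Gss, glutathione synthetase, was at 7.5 and 6.6 FPKM with an interval of [-0.41, 0.04]. Slc7a11, the cystine carrier that feeds this pathway, was below the filter at 0.34 and 0.29 FPKM. By the gene ontology column of the table the balance was even: of 12 genes past the filter with the term "glutathione metabolic process", Gclc and Gclm among them, 6 were higher and 6 lower, with a median of -0.0122, and 11 intervals included 0.

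The thioredoxin and peroxiredoxin set held 26 genes, 8 higher and 18 lower, with a median of -0.06 (-0.03 after rescaling to equal totals) and extremes of 0.24 for Sepw1 and -0.21 for Nxn. The superoxide and hydrogen peroxide set, with 4 higher and 8 lower, had a median of -0.02, or 0.02 after rescaling to equal totals. The rescaled medians of both sets stand against 0.0346 over all genes under that setting. Sod1, the cytosolic superoxide dismutase, was at 511.68 FPKM in PB and 536.81 FPKM in PB-TERRA. The heme and iron set was balanced, with 12 higher and 11 lower. No gene of these 3 sets reached 0.5 in either direction.

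**Figure D3:**
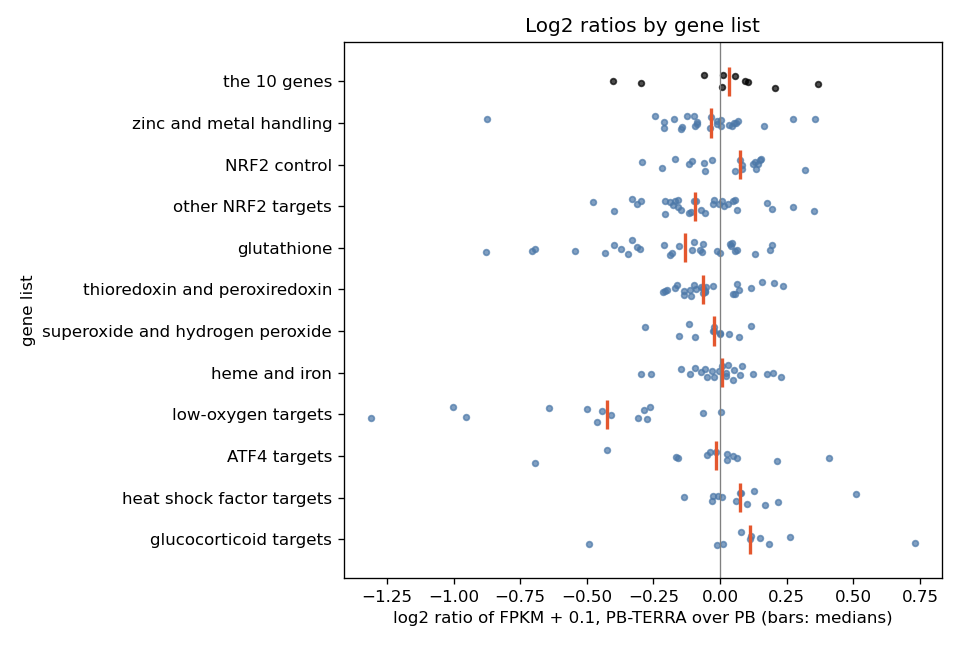
Log2 ratio of FPKM + 0.1, PB-TERRA over PB, for every gene past the filter in each gene set, with 1 point per gene and a bar at each median. The sets around the 10 genes have medians between -0.13 and 0.08, and the low-oxygen targets have a median of -0.43.

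Several of the 10 genes also answer to other stress factors, and target sets of these were described in the same way. Low-oxygen targets differed most, with 1 of 14 higher and 13 lower and a median of -0.43. The most abundant were Ldha, lactate dehydrogenase (-0.41), and Pgk1, a glycolytic enzyme (-0.44). The 4 at -0.5 or below were Ndufa4l2 (-1.31), Aldoc (-1.002), Egln3 (-0.95) and Bnip3 (-0.64), and the highest was Kdm3a (0.0035). Hmox1, which is also a low-oxygen target and was not counted in that set, was at 0.01. Glucocorticoid targets, a class that holds both metallothioneins, had 8 of 10 higher and a median of 0.11, with Cdkn1c, a cell cycle inhibitor, the highest (0.73) and Tsc22d3 the lowest, at -0.49 with an interval of [-1.23, 0.12] that includes 0, or -0.25 with a pseudocount of 1 FPKM. ATF4 targets had 6 higher and 7 lower, from -0.69 for Chac1 to 0.41 for Ddit3. Heat shock factor targets had 9 higher and 4 lower with a median of 0.07 (0.11 after rescaling to equal totals, against 0.0346 over all genes). They ranged from -0.14 for the chaperonin Hspe1 (-0.04 against genes of like GC content and length) to 0.51 for the chaperone Hspa1a (0.33 with a pseudocount of 1 FPKM).

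The gene ontology column of the table attached the process "response to stress" to Nqo1, Gclc, Gclm, Txnrd1 and Srxn1. Of the 161 genes past the filter with this term, 79 were higher and 82 lower, and their median log2 ratio was -0.0049. The other 5 genes, Mt1, Mt2, Nfe2l2, Hmox1 and Gsr, carried no process term there.

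Over the main setting and the alternatives, the log2 ratio of Mt1 ranged from -0.40 to -0.30, that of Gsr from -0.30 to -0.26, that of Srxn1 from 0.20 to 0.26 and that of Nqo1 from 0.36 to 0.41. Mt1 is short, at 583 bases, and genes under 700 bases had a median of -0.05. Its ratio nearest to 0, -0.30, was found against genes of like GC content and length.

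**Figure D4:**
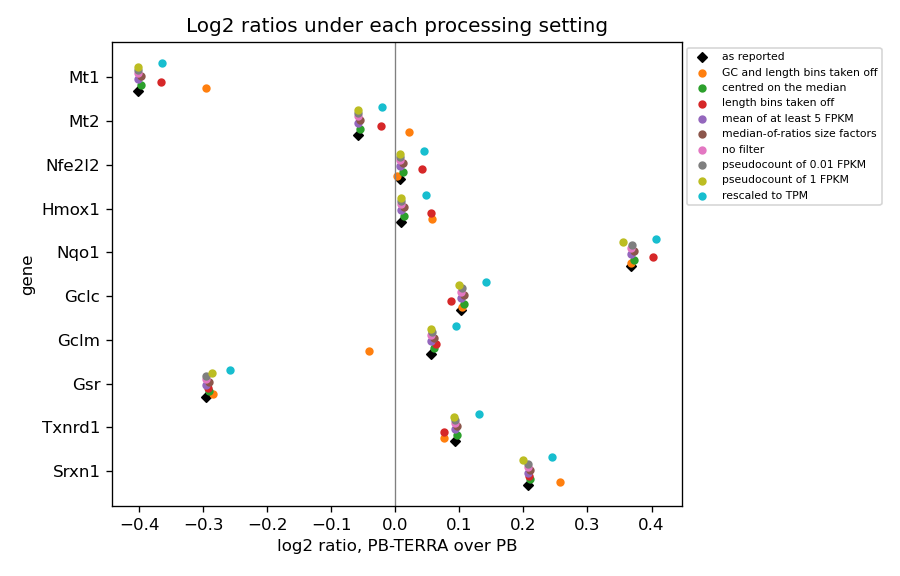
Log2 ratio of each of the 10 genes under the main setting and each alternative (pseudocount, filter, scaling, length and GC content), with 1 point per setting. The points of Mt1 and Gsr stay below 0 and those of Nqo1 and Srxn1 above 0, while Mt2 and Gclm have a point on either side.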

How the data were processed

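PB and PB-TERRA 46C mESCs gave 1 library each, from total RNA taken with Trizol, prepared with a TruSeq RNA LT v2 kit and sequenced by BGISEQ500 protocols. The deposited table gives 1 expression value per gene and library, read here from the values as FPKM, which the authors scaled to gene length and mapped reads and rounded to 2 decimals with a floor of 0.01. It also gives the deposited gene length, in bases, among other columns. HISAT, Cufflinks and mm9 are named in the submitters' processing notes, with no role or version. The authors' columns of fold changes, p-values, adjusted p-values and direction calls were not used, and no p-value was computed.

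The members and gene lists were chosen with earlier results of these data known. Log2 ratios used FPKM + 0.1, and genes were kept where either library reached 1 FPKM. Depth was fitted to 870 low values in PB and 928 in PB-TERRA of genes of 300 to 1200 bases, of which 83.3% and 85.9% came out as whole reads within rounding and 0.05 reads. The fit took 115 bases off each length, for a cause that is not known. Because these shares are not near 100%, reads are estimates and no count test was run.

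Genes that could be named were the 10 genes, fixed regulators and partners, and from each list the 2 most abundant genes, the highest and lowest ratio, and those at 0.5 or more in either direction. Other genes of a list were named only as cell type markers. Alternatives were other pseudocounts (0.01 and 1), no filter or a mean of 5 FPKM, median centring, size factors, rescaling to TPM, and bins of length (50) or of GC content and length (10 by 10). GC content came from GENCODE M21 (GRCm38) for 94.3% of genes past the filter and for all 10 members. Coordinates come from RefSeq on GRCm38.p6, not from mm9, and 7 of the 10 genes matched a promoter window. Computations ran in Python (3.11.15) with pandas (2.3.3), numpy (2.4.6) and scipy (1.17.1), and plots in matplotlib (3.10.9).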

Additional observations from a re-analysis of the deposited data

How the results depend on the processing

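The count of members higher in PB-TERRA was 7 under every alternative run (with bins of GC content and length, Mt2 was among them and Gclm, at -0.04, was not), none reached 0.5, and the median log2 ratio of the 10 genes ranged from 0.03 to 0.07. The count of intervals away from 0 was 7, or 6 with genes of like length, alone or with GC content, as the reference, which lost Mt2. Rescaling to TPM also lost Mt2 and gained Gclm. Mt2 turned from -0.06 to 0.0214 with bins of GC content and length, and Txn1 turned from -0.06 to 0.0123 with length bins. Rescaling to TPM shifted the median ratio of all genes by 0.04. Using the whole gene length for the estimated reads was added after seeing the data. No paired analysis was possible because each group has 1 library. Depth limits Mt3 and Mt4, and the spread between cultures is unknown for every value.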
